A study of Mus musculus with 16 samples.

Results

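The genes described here are the odorant receptors numbered Olfr161 to Olfr210 on mouse chromosome 16, without Olfr170, the receptor of that stretch whose signal moved with the odor in these data. They were chosen by the platform's gene symbols, with 1 probe set per gene. The array measured 33 of them, among 1080 receptor genes named Olfr with a number and 19505 named genes in all. The question was whether the neighbours of Olfr170 moved with it. Of the 33 members, 0 passed the test for a changed sort difference with odor, a test that 1 of all 22206 probe sets (0.0045%) passed as lower and 0 as higher. The lowest changes were -2.85 in Olfr183, -1.30 in Olfr190, -1.24 in Olfr199, -1.10 in Olfr175 and -1.06 in Olfr167. None of these passed the test. In the 2 receptors directly beside Olfr170 the sort difference moved by -0.25 and -0.04 with odor, against -3.30 in Olfr170 (log2). Most members differed between the sorts whatever the treatment, as did most other receptors. In vehicle 9 of 33 members and 381 of 1046 other receptors were not called between the sorts, and with odor 8 and 365. Of all 22206 probe sets, 18355 were not called in vehicle and 17568 with odor.

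Odorant receptors are G protein-coupled receptors of the cilia of olfactory sensory neurons. Each such neuron expresses a single receptor gene from a single allele, and receptor genes lie in clusters along the chromosomes. An odor activates the neurons whose receptor binds it, so the receptor transcripts of a sorted group of neurons tell which neurons are in it. Neighbouring receptor genes share chromatin and often share sequence, but they are expressed by different neurons.

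The sorted cells were taken from olfactory mucosa, and the mice were of the S100a5-tauGFP line on the C57BL/6 strain. All groups, the controls included, carried this reporter, whose GFP follows S100a5, a calcium-binding protein gene of olfactory neurons that rises with activity. The 24 mice, of both sexes and 7 to 12 weeks old, stayed singly in clean-air chambers for 40 hours at 3.1 L of air per minute, and from hour 26 were given 10-second pulses every 20 minutes. The pulses held filtered air (vehicle) or isoamyl acetate, a fruit ester (odor). Mice were combined in pools of 3 before sorting by fluorescence, and the 8 pools each gave 2 libraries, 1 of either titled sort. Libraries titled GFP+ and libraries titled GFP- each number 4 for vehicle and 4 for odor, which makes 4 groups. Each replicate therefore stands for 3 animals, and the sorted fractions hold whatever cells passed the gate.

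The titles and the cell type field of the labels give opposite GFP signs in all 16 libraries. S100a5 was lower in the library titled GFP+ in 8 of 8 pools, with differences of -0.86 to -1.45 on the log2 scale. Libraries are therefore named by title throughout, and a sort difference is the library titled GFP+ minus the library titled GFP-. If the cell type field is right, every sort difference and interaction given here changes sign, and the titled sorts trade names in odor minus vehicle. All values are deposited log2 signals, on which a difference of 1 is a factor of 2. The median of the negative control probe sets was between 5.15 and 5.67 on the 16 arrays and their 95th percentile between 9.39 and 10.09. Of the 33 members, 27 were above the median negative control in all 16 libraries, and 16 were above the 95th percentile in all 4 libraries of a group. The number of arrays limits the precision.

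In the RefSeq gene order of GRCm38.p6 the members fell into 3 places. Olfr161 stood alone. Olfr164, Olfr165, Olfr166, Olfr167, Olfr168, Olfr169 and Olfr171 formed with Olfr170 a run of receptors with no protein-coding gene of another kind between them. No annotated gene lay between Olfr169 and Olfr170 or between Olfr170 and Olfr171. The other 25 members, Olfr172 to Olfr209, formed a separate run elsewhere on the chromosome. In the receptor family names of RefSeq, Olfr169, Olfr170 and Olfr171 all belong to MOR family 273. Olfr164 and Olfr165 belong to family 279, and Olfr166, Olfr167 and Olfr168 to families 270, 272 and 271. The distant run holds families 182, 183 and 184, with 10, 7 and 8 members; Olfr193 carries a name of another family beside that of family 183.

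The stretch of 250 bases before the annotated start of Olfr170 is shown with that of Olfr169, because these neighbours are almost alike there, and with that of Olfr183, the member whose interaction of odor and sort came closest to that of Olfr170. The sequences are from RefSeq on GRCm38.p6, written 5′ to 3′ on the gene's strand. Olfr170 is at chr16:19606667-19606916 on the minus strand, Olfr169 at chr16:19566882-19567131 on the minus strand and Olfr183 at chr16:58995154-58995403 on the plus strand. Capitals in Olfr170 and Olfr169 mark the bases that differ between them or lie outside their alignment. Capitals in Olfr183 mark the longest run of bases it shares with Olfr170, which is 7 bases.
Olfr170: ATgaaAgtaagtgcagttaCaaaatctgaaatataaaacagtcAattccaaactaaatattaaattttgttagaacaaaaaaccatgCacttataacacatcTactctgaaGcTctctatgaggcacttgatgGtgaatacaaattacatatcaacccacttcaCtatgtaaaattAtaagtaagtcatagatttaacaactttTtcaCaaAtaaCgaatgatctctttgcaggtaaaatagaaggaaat
Olfr169: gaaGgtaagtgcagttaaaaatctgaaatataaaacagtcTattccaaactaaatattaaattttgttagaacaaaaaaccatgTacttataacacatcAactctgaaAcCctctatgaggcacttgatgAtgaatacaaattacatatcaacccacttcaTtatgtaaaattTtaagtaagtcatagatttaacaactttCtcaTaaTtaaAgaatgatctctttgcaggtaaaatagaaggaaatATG
Olfr183: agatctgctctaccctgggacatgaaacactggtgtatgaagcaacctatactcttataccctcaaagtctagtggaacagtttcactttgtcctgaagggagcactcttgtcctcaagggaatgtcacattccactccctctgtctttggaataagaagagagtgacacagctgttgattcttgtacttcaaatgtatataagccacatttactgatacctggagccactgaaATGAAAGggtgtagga

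Olfr170 and Olfr169 were identical at 234 of 248 aligned positions (94.4%), with 1 gap. Over the 25 other members with a window, local alignment with Olfr170 gave 51.2% to 57.7% identity, and Olfr183 was at 54.3%. Windows were found for 26 of the 33 members; Olfr166, Olfr167, Olfr168, Olfr171, Olfr195, Olfr199 and Olfr204 had none. In 16 of the 26, and in Olfr170, the annotated model begins at an ATG, so the window lies before the coding start and may not be the promoter. Only 3 other pairs shared 70% or more over at least 200 aligned positions. These were Olfr191 with Olfr193 (97.3%), Olfr164 with Olfr165 (73.2%) and Olfr172 with Olfr173 (70%).

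Members were also searched, on both strands, for a pair of motifs known from receptor promoters. The homeodomain core TAATTA was found in 4 of 26 member windows, those of Olfr169, Olfr172, Olfr196 and Olfr198, and not in that of Olfr170. It was in 18.1% of 944 receptor windows and in 4.84% of 32851 windows of all genes. The Ebf palindrome, TCCC and GGGA with any 2 bases between them, was in 0 of 26 member windows, in 0.424% of receptor windows and in 0.779% of all windows. A match to either motif is no evidence of binding.

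Olfr170 was chosen for its response, so its values are given as a description only. In vehicle it measured 10.07, 9.65, 10.82 and 10.10 in pools 1 to 4 titled GFP-, and 11.68, 11.20, 10.87 and 10.66 in the same pools titled GFP+. With odor it measured 12.55, 12.16, 12.30 and 12.08 titled GFP- and 9.69, 9.86, 9.97 and 10.12 titled GFP+. The library titled GFP+ was the higher of its pool in all 4 vehicle pools and the lower in all 4 odor pools. The sort difference averaged 0.94 in vehicle and -2.36 with odor, and the change of sort difference, called the interaction below, was -3.30 (SE 0.33). Of the 22206 probe sets tested, 1 (0.0045%) was called lower in the interaction and 0 higher (0%). That 1 is the probe set of Olfr170, and since Olfr170 was chosen for its response, the call is no test.

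Among the members limma called 0 of 33 in the interaction at an adjusted p under 0.05, with the lowest adjusted p at 0.596. At an unadjusted p under 0.05, 0 members were higher and 6 lower, against 1.71% higher and 1.23% lower of all tested probe sets. Among the 1046 other receptors, 0 were called, with 8 higher and 41 lower at an unadjusted p under 0.05. The members' median interaction was -0.26, that of the other receptors -0.09 and that of all probe sets -0.02. The interaction was below 0 in 25 of 33 members and above 0 in 8. It was below 0 in 609 of the 1046 other receptors and in 11714 of all 22206 probe sets. The 95% interval held 0 in 27 members and reached the value of Olfr170 in 1, Olfr183.

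**Figure D1:**
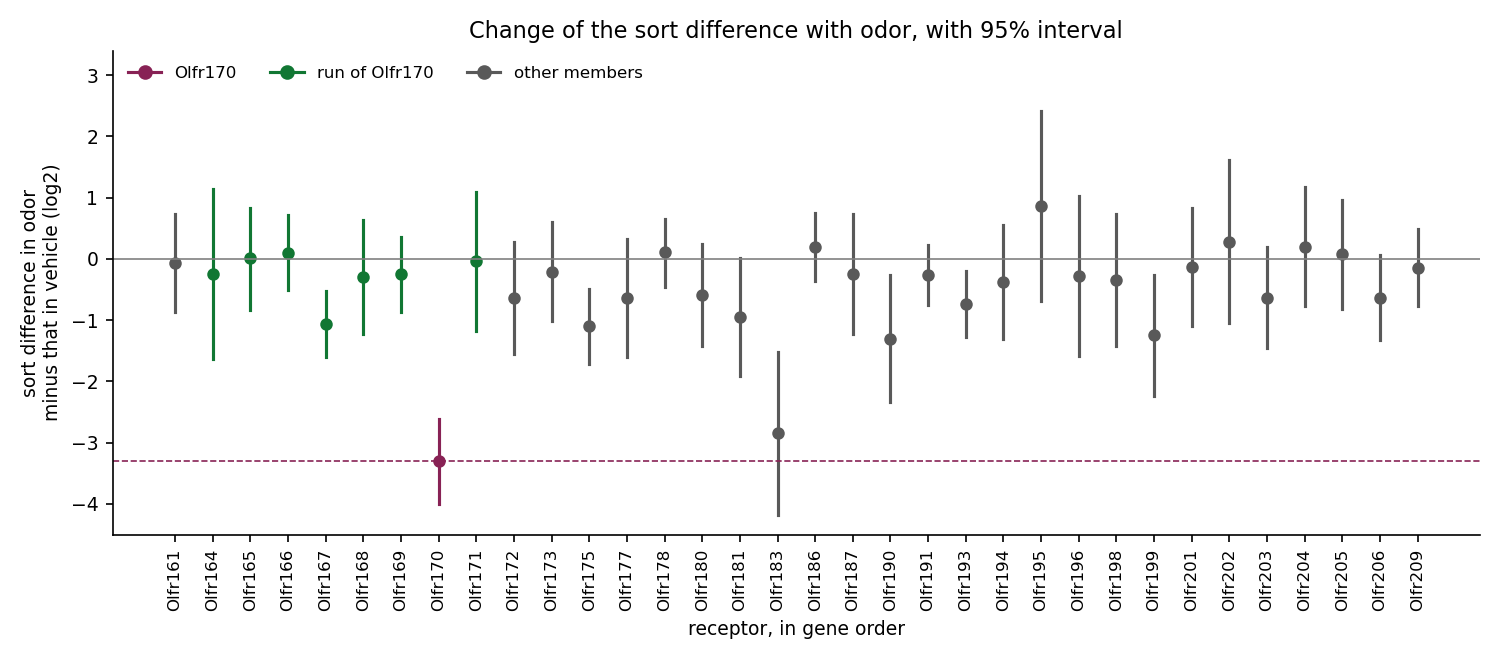
Interaction (change of the sort difference with odor against vehicle, log2) for Olfr170 and the 33 members in gene order. Points are limma estimates from 16 libraries, bars their 95% intervals, and the dashed line is the value of Olfr170 (-3.30). All 7 members in the run of Olfr170 have intervals above -1.63 or at it, while that of Olfr183, in the other run, spans the dashed line.

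The members in the run of Olfr170 give the closest comparison. Olfr169, the neighbour with the almost identical upstream stretch, measured 13.97, 13.74, 13.44 and 13.48 in vehicle pools titled GFP- and 11.74, 11.30, 11.28 and 11.36 titled GFP+. With odor Olfr169 measured 14.19, 14.14, 14.12 and 13.81 titled GFP- and 10.93, 11.52, 11.74 and 12.09 titled GFP+. It was lower in the library titled GFP+ of all 8 pools. Its sort difference was -2.24 in vehicle and -2.49 with odor, and its interaction was -0.25 (SE 0.29, 95% interval -0.87 to 0.36, limma adjusted p = 1).

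Olfr171, the neighbour on the other side and of the same MOR family, measured 13.21, 12.69, 13.28 and 13.58 in vehicle pools titled GFP- and 9.95, 8.74, 9.79 and 9.71 titled GFP+. With odor Olfr171 measured 14.11, 12.83, 14.52 and 14.51 titled GFP- and 10.15, 9.53, 10.47 and 11.09 titled GFP+. Both sorts were somewhat higher with odor on average, and the sort difference was nearly equal, at -3.64 in vehicle and -3.68 with odor. The interaction of Olfr171 was -0.04 (SE 0.54, 95% interval -1.18 to 1.10, adjusted p = 1). So the sort difference of both adjacent receptors had intervals that leave out a change as large as that of Olfr170. Whether the probes of Olfr169, Olfr170 and Olfr171, which are of 1 MOR family, take up each other's RNA was not tested.

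**Figure D2:**
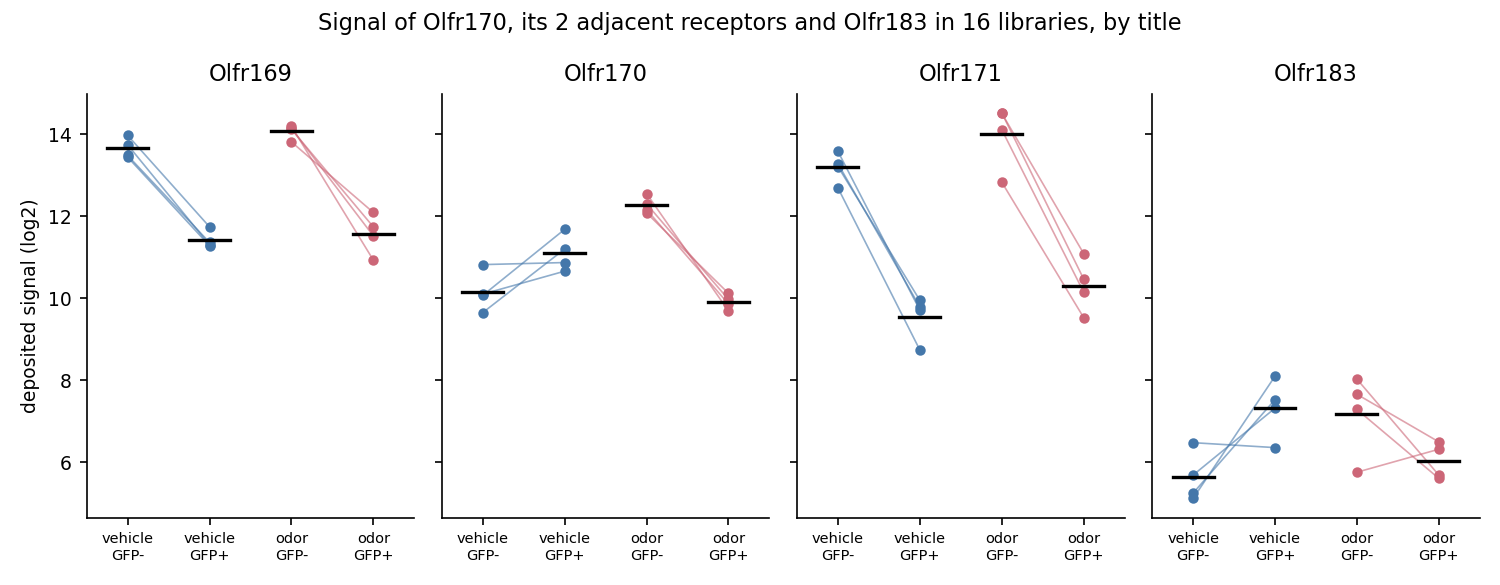
Deposited log2 signal of Olfr169, Olfr170, Olfr171 and Olfr183 in the 16 libraries, grouped by treatment and title. Points are libraries, lines join the 2 libraries of a pool and black bars are group means. The lines of Olfr169 and Olfr171 fall in all 8 pools, those of Olfr170 rise in vehicle and fall with odor, and those of Olfr183 rise in 3 of 4 vehicle pools and fall in 3 of 4 odor pools.

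Farther along the run, the interactions of Olfr164, Olfr165, Olfr166 and Olfr168 were -0.25 (SE 0.65), 0.01 (SE 0.40), 0.10 (SE 0.29) and -0.29 (SE 0.44), all with an adjusted p of 1. Olfr166 had group means from 11.89 to 15.39, and its sort difference was -3.35 in vehicle and -3.25 with odor. The sort differences of Olfr165 were -1.81 in both treatments. Olfr164 varied most of these 4 between pools, from -0.33 to 2.52 in vehicle and from -0.35 to 2.05 with odor. The mean sort difference of each of these 4 receptors had the same sign in both treatments.

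Olfr167, a receptor of the same run, had the lowest interaction of the 7 members in it, at -1.06 (SE 0.25, 95% interval -1.60 to -0.53). Its adjusted p was 0.907, with 0.204 to 1 over the other settings tried, and the unadjusted p was 0.000645. Olfr167 measured 12.94, 12.93, 12.92 and 13.03 in vehicle pools titled GFP- and 10.90, 10.99, 10.70 and 10.86 titled GFP+. With odor it measured 13.63, 14.05, 13.21 and 13.65 titled GFP- and 10.00, 10.41, 10.84 and 10.67 titled GFP+. It was lower titled GFP+ in every pool, with sort differences of -2.37 to -3.63 in the odor pools and -1.94 to -2.22 in the vehicle pools. The sign of its sort difference was the same in all 8 pools.

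**Figure D3:**
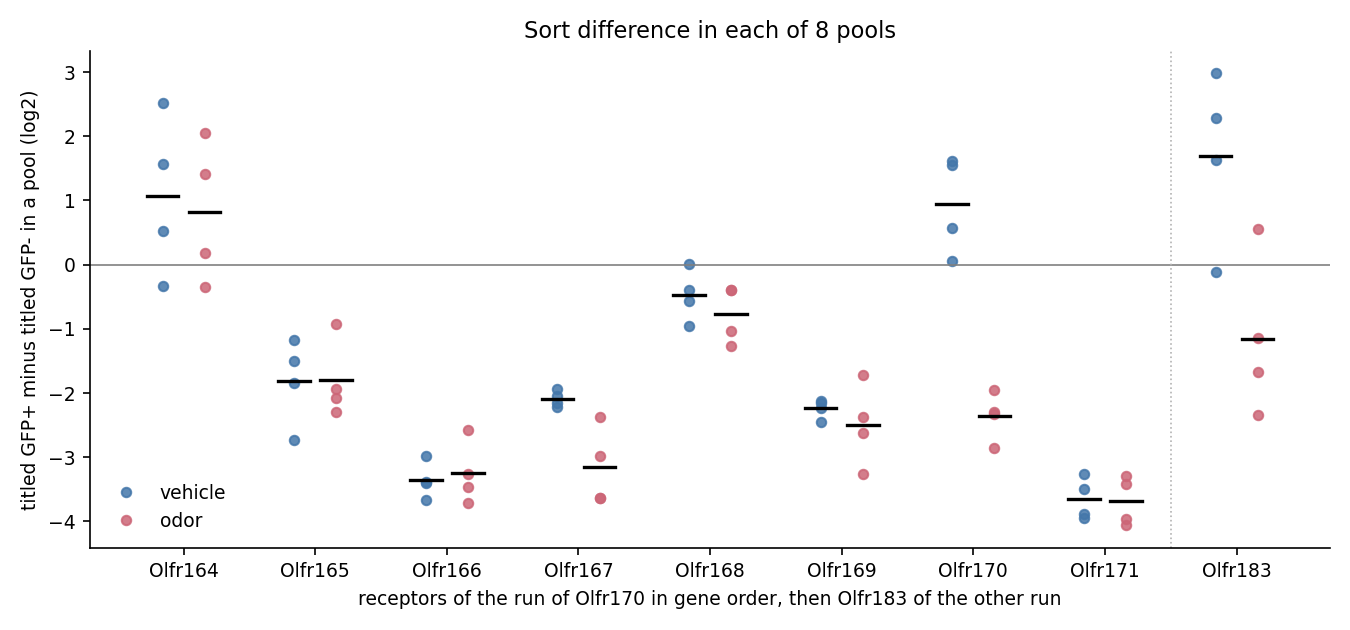
Sort difference (titled GFP+ minus titled GFP-, log2) in each of the 4 vehicle and 4 odor pools for the run of Olfr170 in gene order and for Olfr183. Points are pools and black bars their means. The 2 treatments overlap for Olfr164, Olfr165, Olfr166, Olfr168, Olfr169, Olfr171 and Olfr183, and do not overlap for Olfr167 and Olfr170.

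Olfr183, of MOR family 183 in the distant run, had the lowest interaction of the 33 members and the nearest to that of Olfr170. It measured 5.69, 6.48, 5.25 and 5.12 in vehicle pools titled GFP- and 7.32, 6.36, 7.53 and 8.10 titled GFP+. With odor Olfr183 measured 7.29, 8.03, 7.66 and 5.76 titled GFP- and 5.61, 5.69, 6.50 and 6.32 titled GFP+. Its sort differences were 1.63, -0.12, 2.28 and 2.98 in the vehicle pools and -1.68, -2.34, -1.15 and 0.56 in the odor pools, so 1 pool of each treatment went the other way and the treatments overlapped. The interaction was -2.85 (SE 0.63, 95% interval -4.18 to -1.52), with an adjusted p of 0.596 and 0.203 to 1 over the other settings. Only 3 of the 22206 tested probe sets, its own included, had an interaction this low, and its unadjusted p was 0.000322.

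Olfr183 lay near background, since 2 of the 4 vehicle libraries titled GFP- did not exceed their array's median negative control. Its group means were 5.64 ± 0.61 and 7.33 ± 0.72 in vehicle titled GFP- and GFP+, and 7.19 ± 0.99 and 6.03 ± 0.45 with odor (SD, n = 4). Olfr186 and Olfr190, also of family 183, had interactions of 0.19 (SE 0.26) and -1.30 (SE 0.49). Over the 7 members of family 183 the median interaction was -0.28. In bulk RNA from sorted cells, fewer neurons expressing a receptor and less of its RNA per neuron cannot be told apart.

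After Olfr183, the lowest interactions among members were those of Olfr190, at -1.30 (95% interval -2.33 to -0.27), Olfr199, at -1.24 (-2.23 to -0.26), and Olfr175, at -1.10 (-1.71 to -0.49). All 3 lie in the distant run and had an adjusted p of 1. Their sort differences stayed below 0 in both treatments. Olfr199 went from -2.39 to -3.63, Olfr175 from -2.30 to -3.40 and Olfr190 from -0.60 to -1.90. In odor libraries titled GFP+, Olfr199 exceeded the median negative control in 3 of 4. The highest interactions were 0.86 for Olfr195 (SE 0.73), 0.28 for Olfr202 (SE 0.63), 0.20 for Olfr204 (SE 0.46) and 0.19 for Olfr186, with adjusted p = 1 for each. Over the alternatives these ran from 0.26 to 1.15, -0.08 to 0.94, -0.05 to 0.44 and 0.01 to 0.42, so Olfr202 and Olfr204 did not keep their sign. The 4 vehicle and 4 odor pools did not overlap in 3 of 33 members (9.09%), Olfr167, Olfr190 and Olfr193, all lower with odor. Among all probe sets 1.74% were lower without overlap and 1.19% higher, and among the other receptors 26 of 1046 (2.49%) were lower.

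Odor against vehicle was then compared within each titled sort. Among libraries titled GFP+, limma called 0 of 33 members higher and 0 lower, where 0.00901% and 0% of all probe sets were called. At an unadjusted p under 0.05, 0 members were higher and 7 lower, against 2.41% of all probe sets in each direction. Of the 1046 other receptors, 12 were higher and 71 lower at that p. The members' median was -0.28, and that of the other receptors -0.19. Among libraries titled GFP-, 0 members were called in either direction, where 0.018% and 0% of all probe sets were called higher and lower. At an unadjusted p under 0.05, 4 members were higher and 2 lower there, against 1.72% and 1.58% of all probe sets. Of the 1046 other receptors, 30 were higher and 48 lower. The medians were 0.14 in members and -0.09 in the other receptors.

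Olfr170 itself differed by 2.11 between odor and vehicle in libraries titled GFP- and by -1.19 in libraries titled GFP+. The 7 members in its run spanned -0.07 to 0.81 titled GFP- and -0.38 to 0.76 titled GFP+. Olfr171 had the highest of these values in both sorts, at 0.81 (SE 0.38, adjusted p = 1) and 0.76 (SE 0.38, adjusted p = 0.968). Olfr169 differed by 0.41 (SE 0.21, adjusted p = 1) and 0.16 (SE 0.21, adjusted p = 0.98). Olfr183 differed by 1.55 (SE 0.45, adjusted p = 1) titled GFP- and by -1.30 (SE 0.45, adjusted p = 0.968) titled GFP+. These differences share their libraries with the interaction and are no second test of it.

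The sort itself separated most members, and mostly in 1 direction. In vehicle, limma called 20 of 33 members lower (60.6%) and 4 higher (12.1%) in libraries titled GFP+, where 7.16% of all probe sets were lower and 10.2% higher. With odor 22 were lower (66.7%) and 3 higher (9.09%), against 9.86% and 11%. Among the other receptors the shares were 40.3% lower and 23.2% higher in vehicle, and 42.4% and 22.8% with odor. The members' median sort difference was -1.60 in vehicle and -1.79 with odor, and that of the other receptors was -0.46 and -0.55. When arrays were centred on mature neuron markers, 8 members were higher and 18 lower in vehicle, and 5 and 22 with odor. That scaling moved the median over all probe sets from -0.13 to 0.22 in vehicle and from -0.14 to 0.28 with odor.

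The calls were much the same in both treatments. In 23 members the call was made in both, 20 lower and 3 higher. Olfr183 was called in vehicle only, and Olfr181 and Olfr190 with odor only. Across the 33 members the sort differences in vehicle and with odor had a Pearson r of 0.941, given as a description over receptors that share the same 16 libraries. The sign was the same in 32 of 33, Olfr183 being the exception. In 21 members the library titled GFP+ was the lower in all 8 pools, and in 3 it was the higher in all 8. These counts of calls in both treatments, of signs and of pools were not made for the other receptors or all probe sets. They therefore do not set the members apart.

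**Figure D4:**
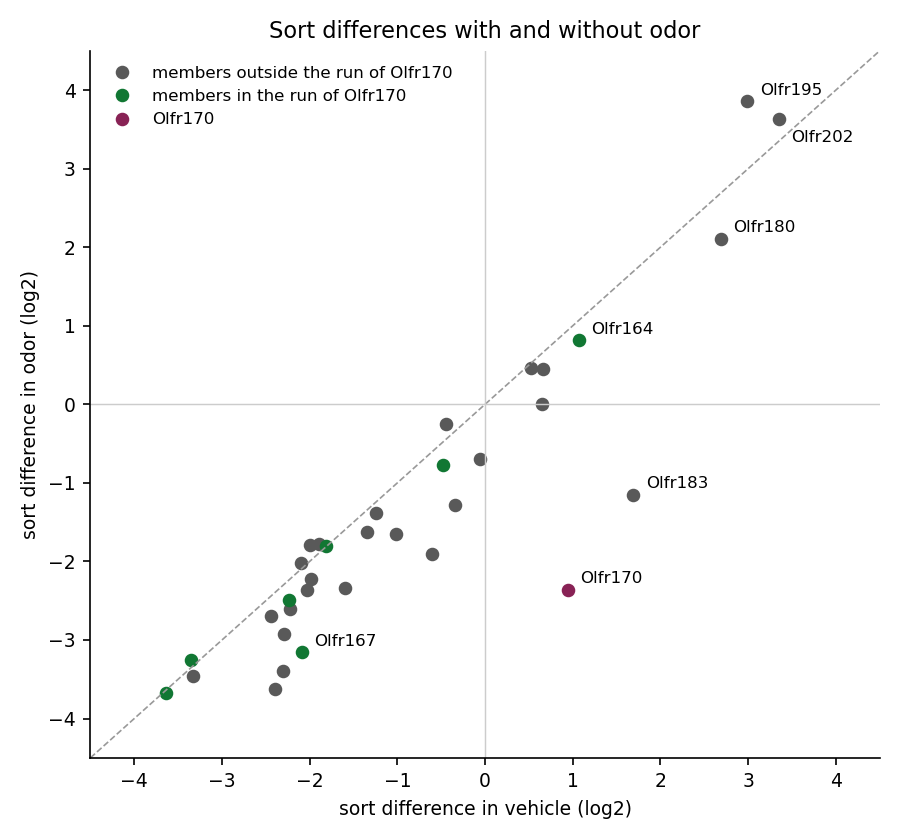
Sort difference in odor against sort difference in vehicle (both titled GFP+ minus titled GFP-, log2) for the 33 members and Olfr170. Each point is a receptor and the dashed line marks equal values. The values of the members correlate with r = 0.941, which does not measure closeness to the line, and 25 of 33 lie below it. Of the 1046 other receptors, not shown, 609 had an interaction below 0, as did 11714 of all 22206 probe sets. Olfr170 (0.94 and -2.36) and Olfr183 (1.69 and -1.15) lie farthest below the line, positive in vehicle and negative with odor.

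Of the 7 members in the run of Olfr170, 5 were lower in libraries titled GFP+ in both treatments, with adjusted p of 0.000116 or less. These were Olfr165, Olfr166, Olfr167, Olfr169 and Olfr171. Lower calls were made for 40.3% of the other receptors in vehicle and 42.4% with odor, and for 7.16% and 9.86% of all probe sets. Olfr171 had the lowest sort difference of the 33 members, at -3.64 (SE 0.38, adjusted p = 1.47e-06) in vehicle and -3.68 (SE 0.38, adjusted p = 1.21e-06) with odor. Olfr168 did not pass, at -0.48 (SE 0.31, adjusted p = 0.327) and -0.77 (SE 0.31, adjusted p = 0.0937); with odor it passed with pools as a block (-0.77, adjusted p = 0.0135). Olfr164 was the run's only receptor with a positive sort difference beside Olfr170 in vehicle, at 1.07 (SE 0.46, adjusted p = 0.129) and 0.82 (SE 0.46, adjusted p = 0.225) with odor. Without vehicle pool 2 the vehicle value of Olfr164 was 1.54, with an adjusted p of 0.0357, and without pool 4 it was 0.59 (adjusted p = 0.51). Its value with odor was 0.41 (adjusted p = 0.609) without odor pool 4. The estimates of Olfr164 and Olfr165, which are of 1 MOR family and share 73.2% of the aligned upstream stretch, lay on different sides of 0. That of Olfr164 was not called, and in pool 2 it was below 0 in vehicle (-0.33) and with odor (-0.35).

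In the distant run 15 of 25 members were lower (60%) and 4 higher (16%) in vehicle, and 17 lower (68%) and 3 higher (12%) with odor. Of the other receptors 40.3% were lower and 23.2% higher in vehicle, and 42.4% and 22.8% with odor. Of all probe sets 7.16% were lower and 10.2% higher in vehicle, and 9.86% and 11% with odor. The lowest sort differences in vehicle were those of Olfr201, at -3.33 (SE 0.32), Olfr191, at -2.44 (SE 0.17), Olfr199, at -2.39 (SE 0.33), and Olfr175, at -2.30 (SE 0.21). Olfr203, Olfr194, Olfr205 and Olfr198 followed with -2.29, -2.23, -2.10 and -2.03. With odor Olfr199 was at -3.63 (SE 0.33), Olfr201 at -3.46 (SE 0.32) and Olfr175 at -3.40 (SE 0.21), while Olfr203, Olfr191, Olfr194, Olfr198 and Olfr193 ranged from -2.92 to -2.34. Adjusted p was at most 0.000502 for each of these. The other 7 called lower in vehicle, Olfr178, Olfr187, Olfr193, Olfr196, Olfr204, Olfr206 and Olfr209, were called with adjusted p up to 0.0419 (Olfr196; 0.0525 with pools as a block), and Olfr206 was the nearest to 0, at -1.02. With odor the other 9 ranged from -2.22 (Olfr187) to -1.28 (Olfr181). Olfr201 is an example of how far the sorts stood apart: its vehicle values were 11.19, 12.12, 11.88 and 11.19 titled GFP- against 7.65, 8.29, 8.91 and 8.21 titled GFP+.

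By family, 9 of 10 members of family 182 were lower in both treatments and 1, Olfr202, was higher. Family 184 was split, with 2 of 8 members higher and 2 lower in vehicle and 2 higher and 3 lower with odor. Of the 7 members of family 183, 4 were lower and 1 higher in vehicle, and 5 were lower with odor. Beside these small counts, 40.3% of the other receptors were lower and 23.2% higher in vehicle, and 42.4% and 22.8% with odor. Over all probe sets 7.16% were lower and 10.2% higher in vehicle, and 9.86% and 11% with odor. Olfr191 and Olfr193, the pair with 97.3% identity before the start, were both lower, at -2.44 and -1.60 in vehicle and -2.70 and -2.34 with odor. Probes of such close relatives may take up each other's RNA, which was not tested.

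Olfr202, Olfr195 and Olfr180 were higher in libraries titled GFP+ in all 8 pools. Olfr202 measured 5.79, 5.39, 6.34 and 6.17 in vehicle pools titled GFP- and 10.08, 8.28, 9.35 and 9.36 titled GFP+. Titled GFP-, Olfr202 lay near background, and 3 of 4 vehicle libraries exceeded their array's median negative control, so the size of its difference is uncertain. Olfr202 differed by 3.35 (SE 0.44, adjusted p = 2.34e-05) in vehicle, and with odor by 3.63 (SE 0.44, adjusted p = 8.79e-06). Olfr195 measured 8.35, 9.41, 8.36 and 7.02 titled GFP- against 11.70, 11.04, 11.72 and 10.65 titled GFP+ in vehicle. Its difference was 2.99 (SE 0.52, adjusted p = 0.000375) in vehicle and 3.86 (SE 0.52, adjusted p = 2.43e-05) with odor. Olfr180 differed by 2.69 (SE 0.28, adjusted p = 1.32e-06) and 2.11 (SE 0.28, adjusted p = 2.07e-05). Olfr195 and Olfr180 belong to family 184 and Olfr202 to family 182. The measured members next to them in gene order could differ the other way: beside Olfr202, Olfr201 was at -3.33 and Olfr203 at -2.29 in vehicle, and beside Olfr195, Olfr194 was at -2.23 and Olfr196 at -1.35.

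The fourth member called higher in vehicle was Olfr183, at 1.69 (SE 0.45, adjusted p = 0.0126). That call was lost when single pools were left out: the adjusted p was 0.0579 without vehicle pool 1, 0.0839 without pool 3 and 0.123 without pool 4, with 0.00204 as the lowest over all settings. With odor its sort difference was -1.15 (SE 0.45, adjusted p = 0.0778).

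The members called in neither treatment were 7: Olfr161, Olfr164, Olfr168, Olfr172, Olfr173, Olfr177 and Olfr186. Olfr161 and Olfr172 lay at background. Olfr161 was above the median negative control in 0 of 8 libraries titled GFP- and in 4 of 8 titled GFP+, and Olfr172 in 3 of 16 libraries, none of them odor titled GFP+. Their group means were 4.69 to 5.22 and 4.47 to 5.18, so no fold is given. Olfr173, Olfr177 and Olfr186 were above it in all 16 libraries, with sort differences of 0.66, 0.65 and -0.45 in vehicle and 0.45, 0.01 and -0.25 with odor.

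Genes of other kinds border the run of Olfr170 on either side. The 5 nearest measured genes on each side were Cdc45, Ufd1, 2510002D24Rik, Mrpl40 and Hira, and Lamp3, B3gnt5, Klhl6, Klhl24 and Yeats2. Of these 10, limma called 0 in the interaction, with 0 at an unadjusted p under 0.05 and values from -0.44 (Cdc45, a replication factor) to 0.45 (Klhl6). Between the sorts Klhl6, known for its role in B lymphocytes, was higher in libraries titled GFP+, by 4.21 (SE 0.30, adjusted p = 1.18e-08) in vehicle, where 1 of 4 libraries titled GFP- exceeded its array's median negative control. With odor it was at least 20.5-fold higher (adjusted p = 3.04e-09), a bound because no odor library titled GFP- exceeded its array's median negative control, which is used in its place. Mrpl40, a mitochondrial ribosomal protein, was lower, at -0.47 (adjusted p = 0.0485) in vehicle and -0.57 (adjusted p = 0.0148) with odor. The other 8 passed in neither treatment, and Lamp3 was not above background in any group.

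The genes through which receptors signal were set beside the members. Of 22 transduction gene symbols listed, 20 were measured. Grk3 was listed under its older symbol Adrbk2 as well, which had no probe set of its own. Among the 20, limma called 0 in the interaction, with 0 at an unadjusted p under 0.05. Between the sorts 1 was higher and 3 lower in vehicle, and 1 higher and 4 lower with odor, with medians of -0.12 and -0.24. Grk3, a kinase that desensitizes receptors, was the 1 called higher, with an adjusted p of 0.0376 in vehicle and 0.00421 with odor. In every library titled GFP- it was at or below the median negative control, so its difference has only a bound, at least 1.07-fold with odor, and no fold in vehicle. Pde1c, a phosphodiesterase of the cilia, was lower, at -0.66 (adjusted p = 0.000817) and -0.84 (adjusted p = 6.43e-05), as was Slc24a4, a calcium exchanger, at -0.58 (adjusted p = 0.0126) and -0.49 (adjusted p = 0.0305). Of 17 receptor choice and receptor transcription factors, 1 was higher in each treatment and 0 lower. The activity-dependent neuron genes, S100a5 among them, were lower for 5 of 9 in vehicle and 6 of 9 with odor, and their summed signal (log2 of the sum of linear signals in a library) was 17.45 to 18.60 in libraries titled GFP- and 16.21 to 17.62 titled GFP+.

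Markers of other cells, of neuron stages and of zones were also compared between the sorts. Macrophage and neutrophil markers, of which 17 were measured, were higher in libraries titled GFP+ for 17 genes in vehicle and 16 with odor, with median differences of 6.92 and 6.88, or 6.55 and 6.63 with the 2 and 3 genes at background titled GFP- set at their bound. Their summed signal was 10.05 to 11.86 in libraries titled GFP- and 18.71 to 19.90 titled GFP+. Camp and Csf3r were at or below the median negative control in every library titled GFP-. Of 15 sustentacular and microvillar markers, 14 were higher in both treatments, with summed signals of 13.57 to 14.57 and 15.68 to 17.53. Of 18 immature neuron markers, 10 were higher and 1 lower in vehicle and 8 were higher with odor, with sums of 18.23 to 18.37 titled GFP- and 18.00 to 18.52 titled GFP+. Of 28 mature neuron markers, 7 and 8 were lower and 0 higher, with sums of 21.67 to 21.80 and 21.25 to 21.61. Of 6 measured zone markers, genes that differ between regions of the epithelium, 0 were called in either treatment, with 1 higher in vehicle and 0 with odor at an unadjusted p under 0.05. In the interaction limma called 0 genes of these lists, and 0 passed an unadjusted p under 0.05. The part of these cells in the members' sort differences was not tested.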

How the data were processed

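RNA from 16 sorted cell libraries was hybridised to Clariom S arrays after labelling of 50 to 100 ng of total RNA (source: the labels' protocols). The values are log2 signals as deposited by the authors, with 1 value for each probe set on each array. According to the submitters' processing notes they were made in Affymetrix Expression Console. The version, background correction and normalization were not stated there, and the array medians differed between the sorts (6.42 to 6.52 titled GFP-, 6.79 to 6.90 titled GFP+). Of 28846 probe sets, 6640 controls were left out and 22206 tested. Gene symbols came from the platform annotation, and gene order and sequences from RefSeq tables of GRCm38.p6. No member had several probe sets.

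limma (version 3.58.1, R 4.3.3) was fitted with lmFit to the 4 group means of all 16 arrays with eBayes, which gave 12 residual and 4.49 prior degrees of freedom. Adjusted p-values used Benjamini-Hochberg over the 22206 probe sets of each of 5 comparisons, with 0.05 as the threshold, and intervals are at 95%. The script was tested on simulated data. A probe set is called above background when it exceeds the array's median negative control; a group below it in all 4 libraries gives only a bound. Upstream stretches were aligned locally with Biopython 1.88.

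The 2 libraries of a pool come from the same mice, so the pool pairs the sorts by design. A fit with the pool as a block was an alternative. The deviations of these 2 libraries from the group means correlated in all 8 pools (0.158 to 0.399). Odor and vehicle libraries of 1 number, from different mice, correlated by 0.174 to 0.278 titled GFP+ and 0.0729 to 0.406 titled GFP-. These ranges overlap with that of the pools, so the correlations do not tell shared mice from a shared number. No fit of the interaction paired odor and vehicle pools by number. Other alternatives were 3 scalings, a filter on dim probe sets, a variance trend with a robust fit, a fit on only the groups compared, and leaving out each pool. An alternative with the lowest-mean probe set of a gene gave no value of its own, since every member has 1 probe set.

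The members and gene lists were chosen with earlier results of these data known. The genes named are Olfr170, all members in its run, up to 8 called members with the largest sort difference in each direction, the 4 highest and 4 lowest interactions, 5 measured genes on each side of the run, S100a5, and the 3 transduction genes with the largest differences. The remaining members were named after their values were seen. No batch was tested, for want of scan dates in the sources used here.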

Additional observations from a re-analysis of the deposited data

Results flagged for a closer look

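Olfr170, the receptor beside which the members were set, had a sort difference in odor minus vehicle of -3.30. It is listed because all 4 vehicle pools were above 0 and all 4 odor pools below 0, which was the reason for choosing it and is no test. In 24 receptors and 96 groups of 4 libraries, 3 libraries stood far from the other 3 of their group, where chance flags about 1 group in 20. Olfr168 was at 12.01 in vehicle titled GFP+ replicate 4, against 12.92 to 13.02 in the other replicates. Olfr194 was at 5.30 in odor titled GFP+ replicate 1, against 6.74 to 6.99. Olfr205 was at 8.49 in odor titled GFP+ replicate 1, against 9.20 to 9.30.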

How the results depend on the processing

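The counts of members were recomputed under 16 alternatives, 8 of which leave out a pool. Centring arrays on 28 mature neuron markers raised the members called higher titled GFP+ from 4 to 8 in vehicle and from 3 to 5 with odor; every other count of members was within 1.5 times its reported value. Leaving out each pool gave 3 to 6 higher and 19 to 20 lower in vehicle, 3 higher and 20 to 23 lower with odor, and 0 in the interaction and in odor minus vehicle. With the pool as a block, 4 were higher and 19 lower in vehicle, 3 higher and 23 lower with odor, and 0 changed in the interaction. In odor minus vehicle, with the replicate number as a block, 0 were called. Of the single receptor results named, 52 in all, 48 kept their side of the threshold under every alternative run. Over all 33 members the block changed the calls of Olfr168 with odor (-0.77, adjusted p = 0.0135) and Olfr196 in vehicle (-1.35, adjusted p = 0.0525) and no other. Of the interactions named, 6, none of them called, changed sign when single pools were left out: Olfr171 ran from -0.17 to 0.09, Olfr164 from -0.72 to 0.23, Olfr165 from -0.30 to 0.22, Olfr166 from -0.13 to 0.25, Olfr202 from -0.08 to 0.94 and Olfr204 from -0.05 to 0.44. Centring on mature neuron markers also turned Olfr171 (0.03). The cause was not tested. Median centring put Olfr168 past the threshold in both treatments (-0.85 and -1.14), and centring on mature neuron markers put Olfr164 past it in vehicle (1.42). No interaction value can be had from only the groups compared. The 16 arrays, 4 in a group, limit what could be called: the 95% interval of the interaction of Olfr195 ran from -0.69 to 2.41. Signals near the negative controls limit Olfr161, Olfr172 and Olfr183, and Olfr202 in libraries titled GFP-. Olfr194 and Olfr199 exceeded the median negative control in 3 of 4 odor libraries titled GFP+, which limits their values with odor.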
